A study of Homo sapiens with 42 samples.

Results

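The non-coding host genes of small nucleolar RNAs (snoRNAs) were followed across 10 AC16 lines, of which 9 carried a hairpin against RPL3 and 1 a scrambled hairpin, with or without a construct for RPL3L, the muscle paralog of RPL3. All gene symbols made of SNHG and a number, together with GAS5, ZFAS1, EPB41L4A-AS1, DANCR and CYTOR, were taken, which gave 33 symbols. Of these, 30 had a mean of at least 1 TPM (transcript level scaled to length and to the library total) over the 30 whole-cell libraries and are the host genes described here, out of 60606 genes in the table and 14426 tested at the same minimum. The 3 below it were SNHG28 at a mean of 0.985 TPM, SNHG22 at 0.187 TPM and SNHG27 at 0.186 TPM, and the 3 host genes nearest above it were SNHG31 at 1.57 TPM, SNHG21 at 4.38 TPM and SNHG14 at 6.37 TPM.

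Most human snoRNAs are cut from introns of longer genes after splicing. Box C/D snoRNAs guide ribose methylation and box H/ACA snoRNAs guide pseudouridylation, mainly of ribosomal RNA, and scaRNAs do the same for spliceosomal RNAs in Cajal bodies. The spliced exons of a non-coding host are often a by-product: many such RNAs begin with a terminal oligopyrimidine (TOP) tract, like the mRNAs of ribosomal proteins, carry only short reading frames, and are removed by nonsense-mediated decay when ribosomes translate them. GAS5, named for its accumulation in growth-arrested cells, and ZFAS1 are well known examples.

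The cells were AC16, a human line described as cardiomyocyte-like. All 10 groups received doxycycline at 1 ug/ml and had 3 polyA RNA libraries each. The lines labelled R343W, D308N, D308V, G27D, P291L, R161W and T189M carried the inducible RPL3 hairpin and an RPL3L construct with that amino acid change. RPL3L-WT carried the same hairpin and wild-type RPL3L, shRPL3 carried the RPL3 hairpin with no RPL3L construct, and shScramble carried a scrambled hairpin. Hairpins and constructs came in by lentivirus, with hygromycin selection for the hairpin and a sort on BV421 signal for the construct. The label of P291L alone also calls its construct doxycycline-inducible. The labels do not say whether a line was 1 clone or whether the replicates were separate cultures, so p-values measure only the spread between these libraries, which may be technical. In bulk RNA such as this, fewer cells of a type and less RNA per cell cannot be told apart.

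RPL3 stood at 536 ± 35.2 TPM in shRPL3 and 1570.2 ± 38.8 TPM in shScramble (SD, n = 3 each), and between 519 ± 134 TPM in RPL3L-WT and 1438 ± 334 TPM in R161W among the lines with a construct. RPL3L was at 2463 to 5116 TPM on average in the 8 construct lines and at 0.0296 TPM in shScramble. Replicate 3 of shRPL3 held 121 TPM of RPL3L, against 0.0290 and 0.0353 TPM in the other replicates of that line, and results that rest on shRPL3 are also given without it where they change. Sarcomere and cardiac markers were near 0 (TNNT2 0.118, MYH6 0.027, NKX2-5 0.040 mean TPM), GATA4 was at 2.60 and MEF2C at 1.37 mean TPM, while VIM stood at 2923 and COL1A1 at 1116 mean TPM. Libraries also fell into 2 kinds that no label names: along the first principal component of 510 pseudogenes, 6 libraries were set off by a gap of 17.8 units against a next widest gap of 1.29. The 6 are replicates 1 and 2 of RPL3L-WT, replicate 3 of G27D, replicate 1 of R161W and replicates 1 and 2 of T189M, called the second kind here, and the other 24 are the first kind. In these 4 lines 25 to 27 of the 30 host genes were lower in the second kind than in the first, by a median of 0.39 to 0.43 on the log2 scale, so the count of every comparison is also given with the kind as a term. R343W, D308N, D308V, P291L, shRPL3 and shScramble hold first-kind libraries only. RPL3 split by kind as well, so its means above mix the kinds. In R161W it read 1686 and 1570 TPM in the first kind and 1059 TPM in the second, against 1534 to 1611 TPM in shScramble. In RPL3L-WT it read 673 TPM in the first kind and 445 and 439 TPM in the second, against 500 to 570 TPM in shRPL3.

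All 30 host genes are long non-coding RNA genes in RefSeq, though GENCODE 29 types SNHG32 as protein-coding. The 30 are spread over 14 chromosomes, and 29 of them span at least 1 annotated snoRNA, CYTOR being the exception. They span 149 snoRNAs, of which 84 lie in SNHG14, the very long transcript of the imprinted Prader-Willi region. By the RefSeq names, 13 of the 29 hold box C/D snoRNAs only, 11 hold H/ACA snoRNAs only, 3 hold a scaRNA only (SNHG20, SNHG10 and SNHG21), and GAS5 and SNHG12 hold both main classes. Entries in SNHG1, SNHG17 and SNHG14 whose names give no class were not placed. SNHG25, counted with the box C/D hosts, also overlaps the H/ACA snoRNA SNORA50C in GENCODE 29. Since the TOP tract is the sequence feature these genes are known for, the bases around the RefSeq start were read for 26 of them (GRCh38.p14). The windows below run from 40 bases before the start to 40 after it, on the gene's strand, and capitals mark CTTTC or CTTTT, the letters searched. Those 2 motifs overlap in their first 4 letters and were searched on both strands.
ZFAS1, chr20:49278602-49278681, plus strand: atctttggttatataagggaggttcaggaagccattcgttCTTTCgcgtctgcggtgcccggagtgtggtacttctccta
SNHG32, chr6:31834876-31834955, plus strand: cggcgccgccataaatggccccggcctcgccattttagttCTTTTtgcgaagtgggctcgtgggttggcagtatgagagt
SNHG5, chr6:85678694-85678773, minus strand: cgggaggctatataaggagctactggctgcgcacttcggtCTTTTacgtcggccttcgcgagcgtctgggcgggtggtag
SNHG19, chr16:2155319-2155398, minus strand: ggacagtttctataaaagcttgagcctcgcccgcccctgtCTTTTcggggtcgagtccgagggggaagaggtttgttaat
SNHG12, chr1:28581834-28581913, minus strand: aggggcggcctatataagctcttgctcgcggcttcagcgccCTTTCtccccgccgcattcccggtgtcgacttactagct
SNHG8, chr4:118278722-118278801, plus strand: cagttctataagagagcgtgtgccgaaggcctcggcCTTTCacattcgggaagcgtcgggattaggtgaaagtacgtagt
GAS5, chr1:173869006-173869085, minus strand: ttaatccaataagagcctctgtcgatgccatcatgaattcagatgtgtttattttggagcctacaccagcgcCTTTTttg
SNHG1, chr11:62855846-62855925, minus strand: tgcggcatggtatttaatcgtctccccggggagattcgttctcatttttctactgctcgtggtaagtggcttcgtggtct
SNHG7, chr9:136728145-136728224, minus strand: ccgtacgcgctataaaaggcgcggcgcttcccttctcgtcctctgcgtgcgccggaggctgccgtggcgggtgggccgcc

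In ZFAS1, SNHG32, SNHG5 and SNHG19 the match began exactly at the annotated start. SNHG1 and SNHG7 had neither motif in the window. The GAS5 window lies wholly upstream of the gene as placed in GENCODE 29, 173863900 to 173868882 on the minus strand. Its match therefore rests on the RefSeq start alone. On the sense strand 13 of 26 host promoters held a match, against 16.9% of the 27305 promoters in the RefSeq table and 81.2% of 64 ribosomal protein promoters. On the other strand the shares were 15.4% of host promoters and 17.1% of all promoters. The E-box CACGTG, a palindrome that Myc-family factors bind, was in 2 of 26 host promoters within 300 bases (7.69%) and in 7.43% of all. A match describes letters in a window and shows no start site in these cells.

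The host genes differed widely in abundance, and 5 of them carried 69.3% of their summed level. SNHG29, which holds SNORD49A, SNORD49B and SNORD65, averaged 836.7 TPM over the 30 libraries, GAS5, host of 10 box C/D snoRNAs and SNORA103, 728 TPM, and SNHG1, host of SNORD22 and SNORD25 to SNORD31, 562 TPM. ZFAS1, host of the SNORD12 family, averaged 350.1 TPM and SNHG32, host of SNORD48 and SNORD52, 314 TPM. SNHG6 followed at 206 TPM, CYTOR at 125 TPM and SNHG16 at 100.2 TPM, and the lowest was SNHG31 at 1.57 TPM. The library preparation selected polyA RNA, so these are levels of the spliced host and not of the snoRNAs.

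Summed over the 30 genes, the host RNAs were most abundant in the lines with an RPL3L change at D308 or R343 and in the hairpin line without RPL3L. The sum was 5375, 5471 and 5321 TPM in R343W, 5788, 5706 and 5684 TPM in D308N, and 5507, 5780.2 and 5518 TPM in D308V. It was 4967, 4947 and 4739 TPM in shRPL3, against 2681, 2809 and 2783 TPM in shScramble. These 5 lines have tight replicates, and the 9 libraries of R343W, D308N and D308V all lay above the 3 of shRPL3, which all lay above the 3 of shScramble. The other construct lines fell between or near shScramble: 3372, 3399 and 3422 TPM in P291L, and 2733, 2694 and 3459.8 TPM in RPL3L-WT, whose replicate 3 is its only first-kind library. G27D had 4614 and 4539.9 TPM in its first-kind libraries and 3337 TPM in its second-kind library. R161W had 2912 and 3053 TPM in the first kind and 2246 TPM in the second, and T189M 3222 TPM in the first and 2383 and 2459 TPM in the second. Within the first kind alone the groups therefore ran, from high to low, D308N, D308V, R343W, shRPL3, G27D, then RPL3L-WT, P291L, T189M and R161W close together, and shScramble. As a share of all TPM the sum averaged 0.539% in R343W, 0.573% in D308N, 0.560% in D308V, 0.488% in shRPL3 and 0.276% in shScramble.

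**Figure D1:**
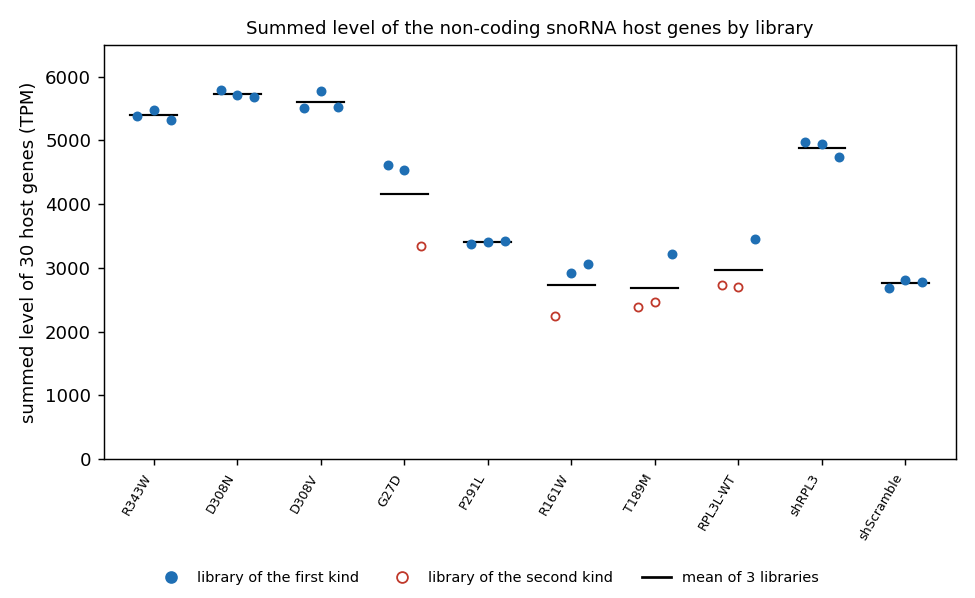
Summed TPM of the 30 host genes in each of the 30 libraries, by line, with filled blue points for first-kind and open red points for second-kind libraries and a black bar for the mean of 3. R343W, D308N and D308V lie between 5321 and 5788 TPM, above shRPL3, while shScramble lies at 2681 to 2809 TPM and the 6 second-kind libraries lie below the first-kind libraries of their own line.

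By the range of group means of log2(TPM + 1), the 8 widest were the abundant hosts GAS5, ZFAS1 and SNHG1 and the smaller SNHG25, SNHG15, SNHG5, SNHG7 and SNHG32. The highest group mean of GAS5 (D308N) was 4.10 times the lowest (shScramble), that of ZFAS1 3.60 times (D308N and shScramble) and that of SNHG1 3.22 times (R343W and shScramble). The ratio was 3.30 for SNHG25, 3.17 for SNHG15, 3.05 for SNHG5, 2.98 for SNHG7 and 2.82 for SNHG32, beside 2.99 for the low-level SNHG30, and at the other end 1.45 for CYTOR and 1.40 for SNHG10. The line with the highest mean was D308N for 10 host genes, R343W for 7 and D308V for 6, and the line with the lowest was shScramble for 11 and T189M for 9. T189M was the lowest line for SNHG15, SNHG5, SNHG7 and SNHG32, and its replicates 1 and 2 are of the second kind. Its first-kind library read 40.0, 57.7, 57.07 and 296 TPM for these genes, above every shScramble library, for SNHG7 by little. The ratios, the counts of lowest lines and the choice of the widest hosts therefore mix library kinds. shScramble itself had the highest mean of 2 host genes, SNHG14 and SNHG18.

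**Figure D2:**
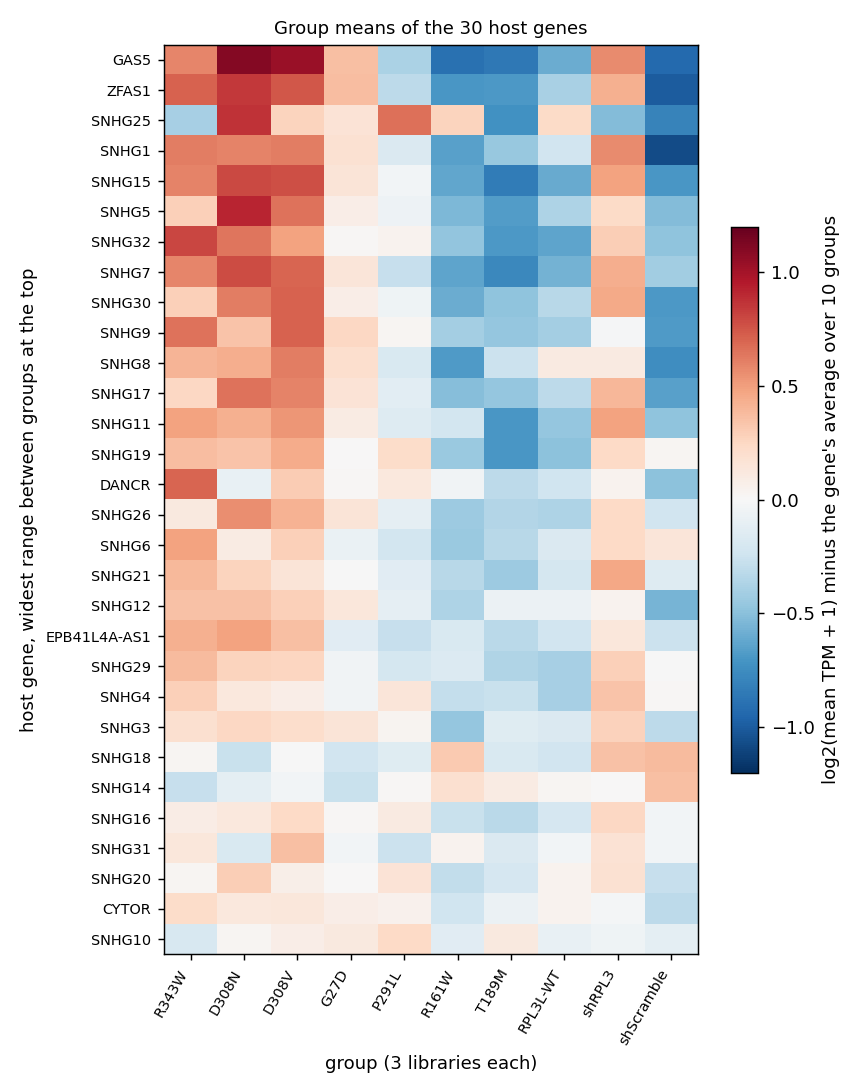
Log2(mean TPM + 1) of each host gene in each line, minus that gene's average over the 10 lines, with genes down and lines across. The columns of R343W, D308N, D308V and shRPL3 lie above average for most genes and those of R161W, T189M, RPL3L-WT and shScramble below it, while SNHG14 and SNHG18 are above average in shScramble.

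Many host RNAs were higher in the RPL3 hairpin line without RPL3L than in the scrambled line. SNHG1 read 785, 787 and 753 TPM in shRPL3, against 248, 249 and 246 TPM in shScramble. GAS5 read 968, 969 and 878 TPM in shRPL3, against 319.8, 343.04 and 332 TPM in shScramble. ZFAS1 read 432, 441 and 408 TPM in shRPL3, against 147, 165 and 163 TPM in shScramble. In all 3 genes the lowest hairpin library was more than 2 times the highest scrambled one. The log2 fold change in limma, with the SE and the Benjamini-Hochberg adjusted p over 14426 genes, was 1.64 (SE 0.07, adjusted p = 8.32e-15) for SNHG1, 1.50 (SE 0.18, 6.31e-07) for GAS5 and 1.42 (SE 0.06, 2.51e-14) for ZFAS1.

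Of the other wide-ranging hosts, SNHG15, SNHG7, SNHG5 and SNHG32 behaved alike, with wider spread. They were picked for their range, and SNHG6 and SNHG16, also of moderate level, did not pass without the kind term. SNHG15, host of SNORA9, read 79.8, 72.1 and 72.2 TPM in shRPL3, against 32.8, 33.1 and 30.8 TPM in shScramble, and its log2 fold change was 1.19 (SE 0.25, adjusted p = 0.000801 in limma). SNHG7, host of SNORA17A and SNORA17B, read 94.0, 94.5 and 111 TPM in shRPL3, against 57.1, 52.5 and 55.2 TPM in shScramble. SNHG5, host of SNORD50A and SNORD50B, read 82.9, 75.1 and 82.8 TPM in shRPL3, against 43.0, 51.3 and 47.3 TPM in shScramble. Both pairs of groups were apart in every library, and both genes passed the test. SNHG32 read 376, 353 and 358 TPM in shRPL3, against 206, 215 and 209 TPM in shScramble. These ranges did not overlap, yet its log2 fold change of 0.78 passed only with the kind term, and its values split by kind in 4 other lines.

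Across the 30 host genes, 17 rose in shRPL3 relative to shScramble (56.7%) against 17.2% of all genes tested, and 1 fell (3.33%) against 18.0%. Their median log2 fold change was 0.57 and that of all genes tested was -0.01. With the kind term which does not move the fold changes between these first-kind lines, 23 were higher and 1 was lower, against 24.4% and 24.5% of all genes. Without shRPL3 replicate 3, which held RPL3L, 15 were higher and 0 lower. Besides those above, SNHG3, SNHG8, SNHG9, SNHG11, SNHG12, SNHG17, SNHG20, SNHG26, SNHG30, DANCR and CYTOR rose, by log2 fold changes of 0.29 (CYTOR) to 1.15 (SNHG30). SNHG29, the most abundant host, was at 1000.4 ± 25.6 TPM in shRPL3 and 817 ± 17.9 TPM in shScramble, and SNHG6 at 238 ± 9.53 TPM in shRPL3 and 224 ± 13.0 TPM in shScramble. Neither passed, and SNHG29 did so with the kind term. The lower gene was SNHG14, at 6.32 ± 0.836 TPM in shRPL3 and 8.42 ± 1.31 TPM in shScramble (log2 fold change -0.36, SE 0.11, adjusted p = 0.0121 in limma). That call was lost without replicate 1 or 3 of shRPL3 or replicate 2 of shScramble.

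**Figure D3:**
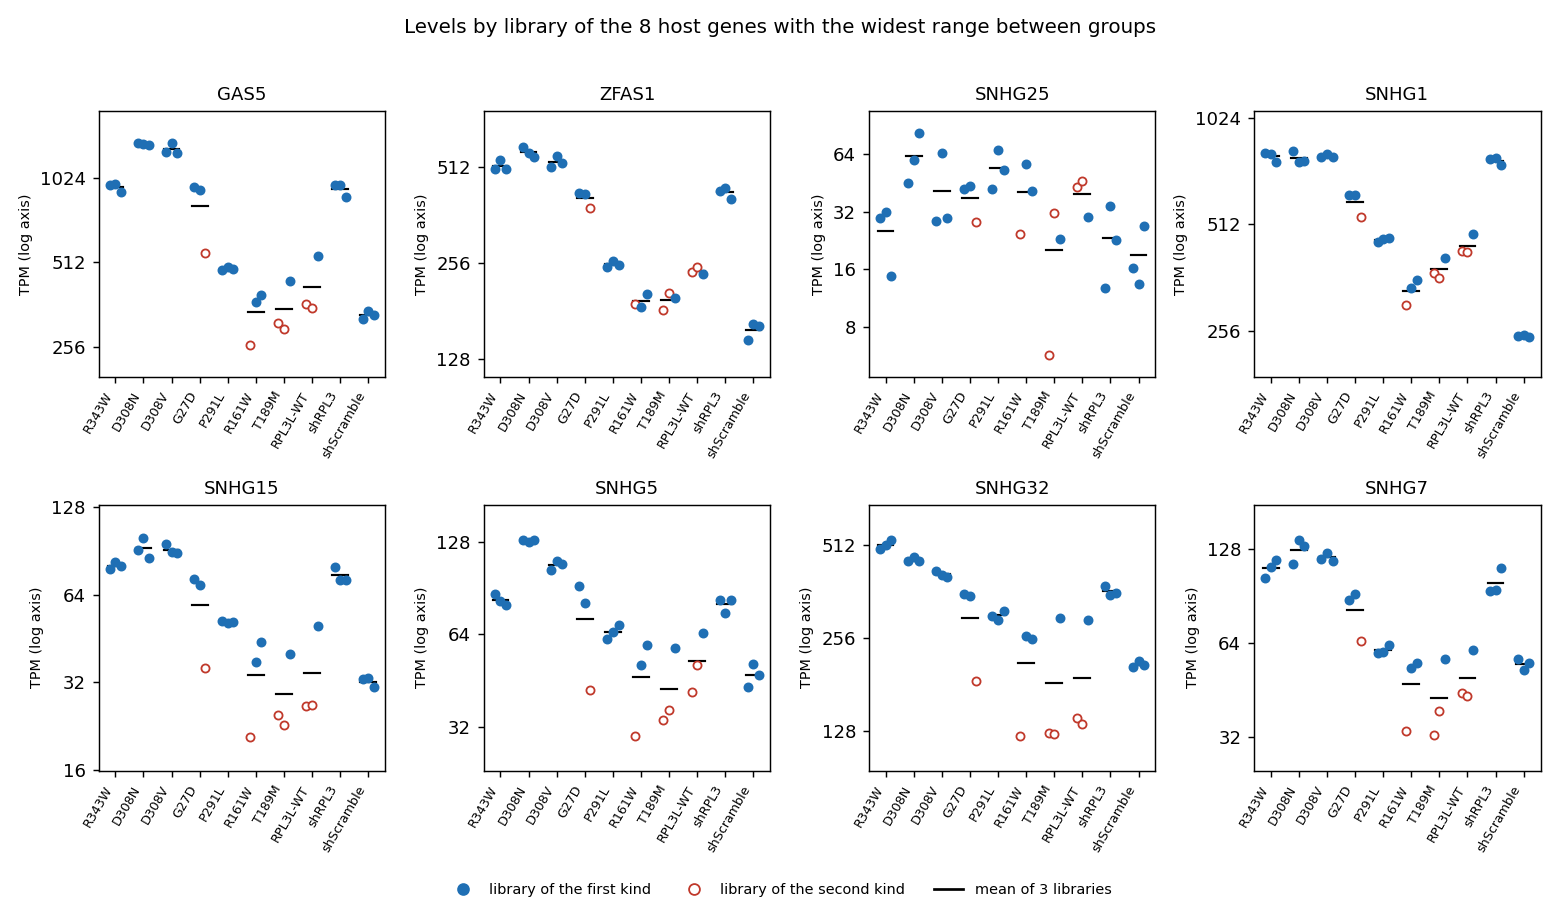
TPM (log axis) in each library for the 8 host genes with the widest range between lines, by line, with filled blue points for first-kind and open red points for second-kind libraries and a black bar for the mean of 3. GAS5, SNHG1 and ZFAS1 are far apart in D308N and shScramble with little spread, SNHG32 splits by library kind in RPL3L-WT, G27D, R161W and T189M, and SNHG25 scatters within lines.

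Wild-type RPL3L on the same hairpin went with lower host RNAs. GAS5 read 365, 352 and 541 TPM in RPL3L-WT, against 968, 969 and 878 TPM in shRPL3. SNHG15 read 26.6, 26.8 and 50.2 TPM in RPL3L-WT, against 79.8, 72.1 and 72.2 TPM in shRPL3. SNHG7 read 44.3, 43.2 and 60.8 TPM in RPL3L-WT, against 94.0, 94.5 and 111 TPM in shRPL3. Replicate 3 of RPL3L-WT, of the first kind, was the highest for each of these genes and still below every shRPL3 library. The log2 fold change in limma was -1.19 for GAS5 (SE 0.18, adjusted p = 5.37e-05), -1.15 for SNHG15 (SE 0.25, 0.00177) and -1.01 for SNHG7 (SE 0.18, 0.000232). Holding library kind in the fit, the sizes shrank to -0.78, -0.57 and -0.63 and the calls held.

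SNHG32 split by library kind within RPL3L-WT. It read 141, 135 and 292 TPM in RPL3L-WT, against 376, 353 and 358 TPM in shRPL3. Its log2 fold change was -1.03 (SE 0.31, adjusted p = 0.0137 in limma), which became -0.31 with the kind term and was lost without RPL3L-WT replicate 1 or 2. ZFAS1, by contrast, read 241, 249 and 236 TPM in RPL3L-WT with no split by kind, against 432, 441 and 408 TPM in shRPL3. SNHG1 read 429.7, 427 and 479.6 TPM in RPL3L-WT, against 785, 787 and 753 TPM in shRPL3. For these 2 genes the kind term changed the log2 fold change little, to -0.79 with it and -0.82 without it for ZFAS1, and to -0.68 with it and -0.80 without it for SNHG1. In all, 17 of 30 host genes were lower in RPL3L-WT than in shRPL3 (56.7%) against 30.2% of all genes tested, and 0 were higher against 5.77%. Fitted with the kind term, 15 were lower and 0 higher, against 20.1% and 6.27%. The medians were -0.62 for host genes and -0.19 for all genes, and -0.26 and -0.10 with the kind term, so all genes moved down too, by less. With median-ratio scaling, which takes the median of all genes near 0, 15 were lower and CYTOR was higher. The share of all genes called with that scaling is not given, here or below.

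Against shScramble, some hosts were higher in RPL3L-WT and others lower. SNHG8, host of SNORA24, was at 85.9 ± 3.04 TPM in RPL3L-WT and 47.1 ± 4.68 TPM in shScramble (log2 fold change 0.86, SE 0.10, adjusted p = 4.89e-07 in limma). SNHG1 was at 445 ± 29.8 TPM in RPL3L-WT and 248 ± 1.24 TPM in shScramble (0.84, SE 0.07, 9.55e-10), and ZFAS1 at 242 ± 6.38 TPM in RPL3L-WT and 158 ± 10.2 TPM in shScramble (0.61, SE 0.06, 4.17e-08). SNHG12, whose introns hold SNORD99 and SNORA61, SNORA44 and SNORA16A, was higher by 0.49 (SE 0.09, 0.000109). SNHG18, host of SNORD123, was lower at 12.4 ± 3.70 TPM in RPL3L-WT and 19.5 ± 1.29 TPM in shScramble (-0.64, SE 0.16, 0.002), as were SNHG4 by -0.43, SNHG29 by -0.40 and SNHG14 by -0.33. The SNHG4 call was lost with the kind term, and those of SNHG4, SNHG29 and SNHG14 with median-ratio scaling. Of 30 host genes 6 were higher and 5 lower, against 12.1% and 34.6% of all genes tested, and with the kind term 17 were higher and 4 lower, against 15.6% and 29.1%. The median of all genes was -0.18 in this comparison, and with median-ratio scaling 11 host genes were higher and 1, SNHG18, was lower. SNHG8, SNHG1, ZFAS1 and SNHG12 were higher in all 3 of these fits. Since the share of all genes is not given for median-ratio scaling, its counts of host genes cannot be set against all genes.

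The 7 RPL3L variants split in their distance from RPL3L-WT. GAS5 read 967, 973 and 911 TPM in R343W, 1371, 1359 and 1347 TPM in D308N, and 1266, 1368 and 1261 TPM in D308V, against 365, 352 and 541 TPM in RPL3L-WT. All 9 of these variant libraries lay above all 3 of RPL3L-WT, and those of D308N and D308V above every library of shRPL3 as well. GAS5 read 949, 933 and 552 TPM in G27D, the last of these in its second-kind library, so that its first-kind libraries lay within the range of shRPL3. It read 482, 493 and 483 TPM in P291L, 259, 368 and 390.4 TPM in R161W, and 309.6, 296 and 439.7 TPM in T189M, all within or below the range of RPL3L-WT.

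ZFAS1 gave the same order with less spread. It read 505, 541 and 506 TPM in R343W, 591, 569 and 550.1 TPM in D308N, and 514, 555 and 528 TPM in D308V, against 241, 249 and 236 TPM in RPL3L-WT. It read 426, 420.4 and 380.4 TPM in G27D and 249.8, 260.1 and 253 TPM in P291L. It read 191, 187 and 205 TPM in R161W and 183, 207 and 199 TPM in T189M. G27D lay between the high lines and RPL3L-WT, P291L lay just above RPL3L-WT, and R161W and T189M lay below it without overlap. In limma the log2 fold change against RPL3L-WT was 0.75 for G27D (SE 0.06, adjusted p = 7.17e-08), -0.32 for R161W (SE 0.06, 0.000952) and -0.30 for T189M (SE 0.06, 0.0102).

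SNHG1 read 815, 811 and 769 TPM in R343W, 825, 771 and 775 TPM in D308N, and 793, 808 and 792 TPM in D308V, against 429.7, 427 and 479.6 TPM in RPL3L-WT. It read 618, 619 and 536 TPM in G27D, 457, 466 and 468 TPM in P291L, 304, 338 and 356 TPM in R161W, and 373, 361 and 412 TPM in T189M. The ranges of the 3 high lines overlapped with one another, all D308V libraries lay above those of shRPL3, and R161W lay lowest, with a log2 fold change against RPL3L-WT of -0.42 (SE 0.07, adjusted p = 0.000114 in limma). SNHG8 was lower in R161W as well, at 49.4 ± 7.33 TPM against 85.9 ± 3.04 TPM in RPL3L-WT (-0.80, SE 0.10, 1.1e-05). RPL3 itself was higher in R161W and T189M than in the other construct lines, at 1438 ± 334 and 942 ± 263 TPM against 519 ± 134 TPM in RPL3L-WT. These means mix library kinds: in the first kind alone RPL3 read 1686 and 1570 TPM in R161W, 1246 TPM in T189M and 673 TPM in RPL3L-WT. The part of RPL3 in these differences was not tested.

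Of the remaining wide-ranging hosts, SNHG15, SNHG7, SNHG32 and SNHG5 followed the same lines, and SNHG25 is given further below. SNHG15 read 78.5, 83.0 and 80.5 TPM in R343W, 91.3, 100.3 and 85.7 TPM in D308N, and 95.3, 90.0 and 89.1 TPM in D308V, against 26.6, 26.8 and 50.2 TPM in RPL3L-WT. SNHG7 read 104, 112 and 118 TPM in R343W, 115, 137 and 131 TPM in D308N, and 119, 124 and 118 TPM in D308V, against 44.3, 43.2 and 60.8 TPM in RPL3L-WT. SNHG32 read 497, 513 and 532 TPM in R343W, 456, 469 and 455 TPM in D308N, and 422, 411 and 403 TPM in D308V, against 141, 135 and 292 TPM in RPL3L-WT. None of the 3 genes overlapped with RPL3L-WT in these lines, its first-kind library included. SNHG32 was highest in R343W, SNHG7 in D308N, and SNHG15 was nearly level in D308N and D308V.

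SNHG5 read 86.6, 82.5 and 79.9 TPM in R343W, 130.4, 128 and 130.1 TPM in D308N, and 104, 111 and 109 TPM in D308V, against 41.5, 50.8 and 64.6 TPM in RPL3L-WT. Its 3 high lines stood in separate steps. SNHG5 ranged over 42.1 to 92.4 TPM in G27D, 61.6 to 68.8 TPM in P291L, 29.9 to 58.9 TPM in R161W and 33.5 to 57.7 TPM in T189M, all overlapping RPL3L-WT. SNHG15 ranged over 35.8 to 72.4 TPM in G27D, 51.1 to 52.2 TPM in P291L, 20.7 to 43.9 TPM in R161W and 22.9 to 40.0 TPM in T189M. SNHG7 ranged over 65.0 to 92.2 TPM in G27D, 59.4 to 63.3 TPM in P291L, 33.3 to 55.3 TPM in R161W and 32.4 to 57.1 TPM in T189M. SNHG32 ranged over 185 to 355 TPM in G27D, 294 to 314 TPM in P291L, 124 to 259.6 TPM in R161W and 125 to 296 TPM in T189M. In all 4 genes the lowest value in G27D, R161W and T189M belonged to a second-kind library.

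Counted over the 30 host genes against RPL3L-WT, 22 were higher and 1 lower in R343W, against 24.5% and 9.19% of all genes tested. In D308N 19 were higher and 0 lower, against 23.7% and 9.48%, and in D308V 20 were higher and 0 lower, against 21.6% and 9.03%. Once the kind was a term, these became 17 and 0, 18 and 0, and 18 and 0, against 18.8% of all genes higher and 12.6% lower in R343W, 17.5% and 12.8% in D308N, and 16.2% and 12.7% in D308V, so the shares of host genes stood above the background in each fit. The gene called lower in R343W was SNHG14, which did not pass with the kind term. GAS5 led in D308N and D308V with log2 fold changes of 1.72 (SE 0.18, adjusted p = 2.44e-07 in limma) and 1.66 (SE 0.18, 4.25e-07), and SNHG32 led in R343W with 1.53 (SE 0.31, 0.000641); with the kind term they were 1.32, 1.25 and 0.82. All 7 variant comparisons share the 3 RPL3L-WT libraries, 2 of which are of the second kind.

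The other 4 variants were closer to RPL3L-WT. In G27D 6 were higher, against 1.55% of all genes tested, and 0 lower, against 1.77%, with GAS5 at 0.94 (SE 0.18, adjusted p = 0.00349 in limma), ZFAS1, SNHG7 at 0.71 and SNHG26 at 0.54 the first 4. In P291L only SNHG4, host of SNORA74A and SNORA74D, passed, at 29.8 ± 1.36 TPM in P291L and 20.1 ± 4.54 TPM in RPL3L-WT (0.57, SE 0.15, 0.036), against 1.66% of all genes higher and 1.09% lower, and it was lost with the kind term, which left 0 higher and 0 lower, against 0.825% and 1.16%. With median-ratio scaling 1 was higher and 1 lower in P291L. In R161W 1 was higher, SNHG18 at 0.56 (SE 0.16, 0.0173), and 6 lower, against 12.6% and 4.07%. In T189M 0 were higher and ZFAS1 was lower, against 1.39% and 0.409%. In the fit with library kind, G27D had 10 higher and 0 lower, against 4.31% and 6.02% of all genes. R161W then had 2 higher and 16 lower, against 16.1% and 8.87%, and T189M 0 higher and 7 lower, against 7.51% and 3.08%.

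**Figure D4:**
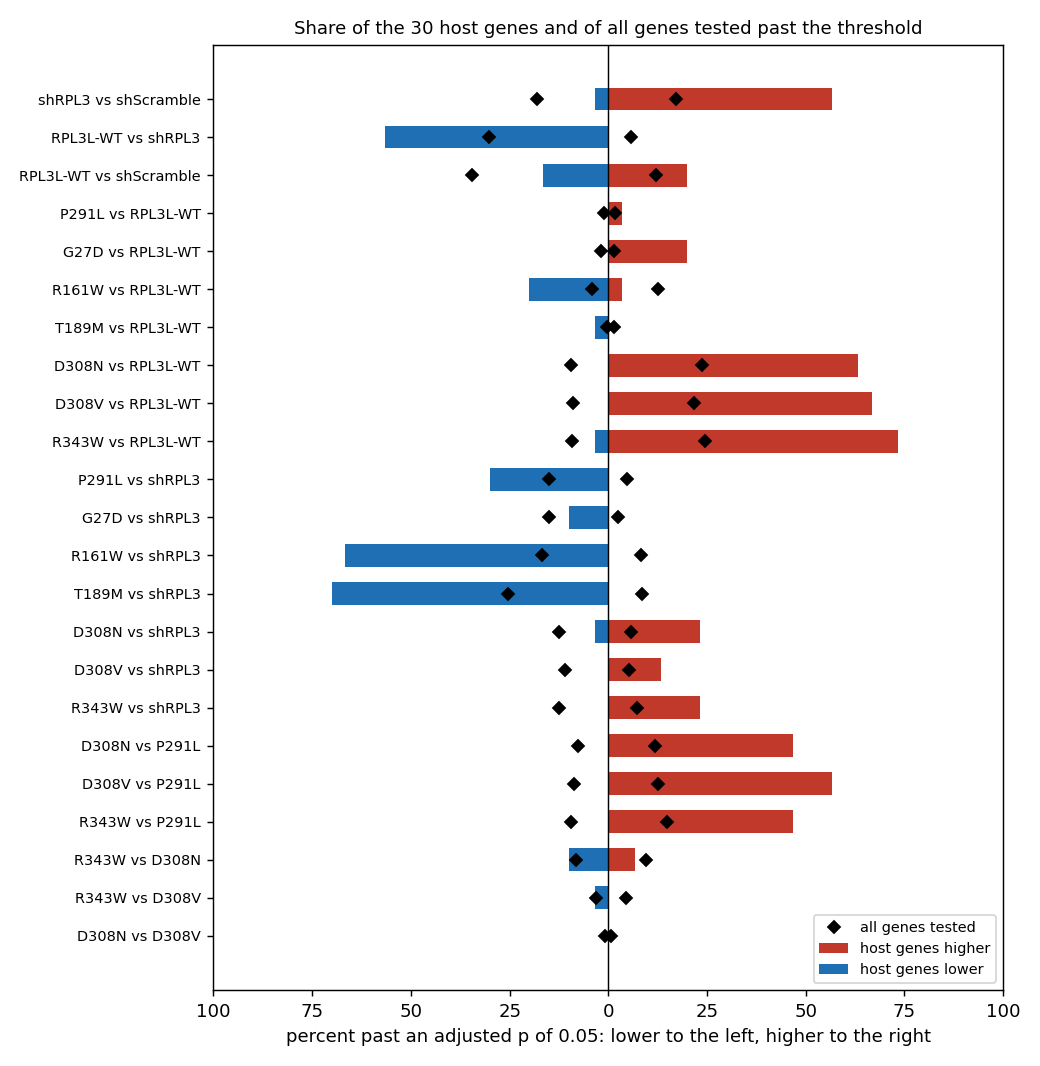
Percent of the 30 host genes called higher (bars to the right) or lower (bars to the left) in each comparison, with diamonds for the same percent over all 14426 genes tested, without a kind term. To the right the bars pass the diamonds in shRPL3 and RPL3L-WT against shScramble and in G27D against RPL3L-WT. They also do so in R343W, D308N and D308V against RPL3L-WT, P291L and shRPL3. To the left they pass in RPL3L-WT, P291L, R161W and T189M against shRPL3 and in R161W against RPL3L-WT. Where other bars pass, they do so by little.

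Set against shRPL3, the 7 variants fell on both sides. In R161W 20 host genes were lower and in T189M 21, against 16.9% and 25.5% of all genes tested, with 0 higher in either, against 8.36% and 8.42%. GAS5 fell by 1.49 (adjusted p = 2.31e-06 in limma) and SNHG1 by 1.22 (9.25e-12) in R161W, and GAS5 fell by 1.45 (3.47e-06) and SNHG15 by 1.37 (0.000358) in T189M, on the log2 scale. Under the kind term, 21 were lower and 0 higher in R161W, against 21.8% and 14.3%, and 18 lower and 0 higher in T189M, against 18.6% and 10.8%. The log2 fold change of GAS5 was then -1.28 in R161W and -1.04 in T189M, and that of SNHG15 in T189M was -0.78. In P291L 9 were lower and 0 higher, against 15.0% and 4.67%, led by GAS5 at -0.95 (0.000558) and ZFAS1 and SNHG1 at -0.74 each. With the kind term 20 were lower and 0 higher, against 27.3% and 8.52%, at the same fold changes. In G27D 3 were lower and 0 higher, against 15.0% and 2.41%: SNHG18 at -0.58, SNHG1 at -0.39 and SNHG6 at -0.32. That share is below the background, and with median-ratio scaling 1 was higher and 2 were lower. Holding library kind in the fit, 5 were lower and 1 higher, against 20.5% and 5.02%.

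In summed level the 3 high lines passed shRPL3, while single host genes went both ways. Fold changes were above 0 for 19 host genes and below 0 for 11 in D308N, 22 and 8 in D308V, and 18 and 12 in R343W. In D308N 7 were higher and 1 lower, against 5.73% and 12.4% of all genes tested, with SNHG5 at 0.69 (SE 0.23, adjusted p = 0.0435 in limma), GAS5 at 0.54 (SE 0.18, 0.0389) and ZFAS1 at 0.42 (SE 0.06, 2.65e-05) higher, and SNHG18 lower at -0.61 (SE 0.16, 0.00796). SNHG25 had the largest value, 1.45 (SE 0.48, 0.0408), from 45.1, 59.5 and 82.4 TPM in D308N, against 12.8, 34.1 and 22.8 TPM in shRPL3. In D308V 4 were higher and 0 lower, against 5.19% and 11.1%: SNHG9, host of SNORA78, at 0.72, SNHG8 at 0.52, ZFAS1 at 0.32 and CYTOR at 0.16. In R343W 7 were higher and 0 lower, against 7.22% and 12.4%, with SNHG9 at 0.67, DANCR at 0.66 and SNHG8 and SNHG12 at 0.31 each. Fitted with the kind term, 13 were higher and 3 lower in D308N, against 11.2% and 22.2%, 12 and 2 in D308V, against 9.67% and 22.4%, and 9 and 1 in R343W, against 12.7% and 22.8%. Without shRPL3 replicate 3, and without the kind term, the counts were 2 higher and 1 lower in D308N, 2 in D308V, and in R343W 4. The 7 comparisons share the shRPL3 libraries.

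R343W, D308N, D308V and P291L are the variants whose libraries are all of the first kind, so fold changes between them are free of that split. Their SE and p-values without the kind term are not, since the fit takes the spread of each gene from all 30 libraries. The comparisons among these lines were added after the levels had been seen. GAS5 was at 950.3 ± 34.4 TPM in R343W, 1359 ± 12.4 TPM in D308N and 1298 ± 60.4 TPM in D308V, against 486 ± 5.82 TPM in P291L (SD, n = 3 each). Its log2 fold change in limma was 0.97 (SE 0.18, adjusted p = 0.000291), 1.48 (SE 0.18, 1.73e-06) and 1.41 (SE 0.18, 3.32e-06). ZFAS1 was at 517 ± 20.4 TPM in R343W, 569.9 ± 20.4 TPM in D308N and 532 ± 20.9 TPM in D308V, against 254 ± 5.23 TPM in P291L, with log2 fold changes of 1.02 (1.39e-11), 1.16 (6.43e-12) and 1.06 (9.06e-12). SNHG7 was higher by 0.86 (0.000851), 1.05 (0.000134) and 0.97 (0.000278).

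Against P291L, 14 host genes were higher and 0 lower in R343W, against 14.9% and 9.42% of all genes tested, and with median-ratio scaling 14 and 2. In D308N 14 were higher and 0 lower, against 11.8% and 7.64%, and in D308V 17 were higher and 0 lower, against 12.7% and 8.8%. Once the kind was a term, 19 were higher and 2 lower in R343W, against 23.8% and 15.1%, 19 and 1 in D308N, against 21.2% and 13.8%, and 18 and 0 in D308V, against 21.2% and 15.1%. The medians of the host genes were 0.43, 0.43 and 0.48 in R343W, D308N and D308V, and those of all genes 0.05, 0.05 and 0.03. GAS5, ZFAS1, SNHG1, SNHG7, SNHG8, SNHG11, SNHG12, SNHG29, SNHG17, SNHG6 and EPB41L4A-AS1 were among those higher; SNHG15 in D308V (0.81, adjusted p = 0.0246) lost its call whenever any 1 library was left out. The 3 comparisons share the P291L libraries, so their likeness is not independent.

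**Figure D5:**
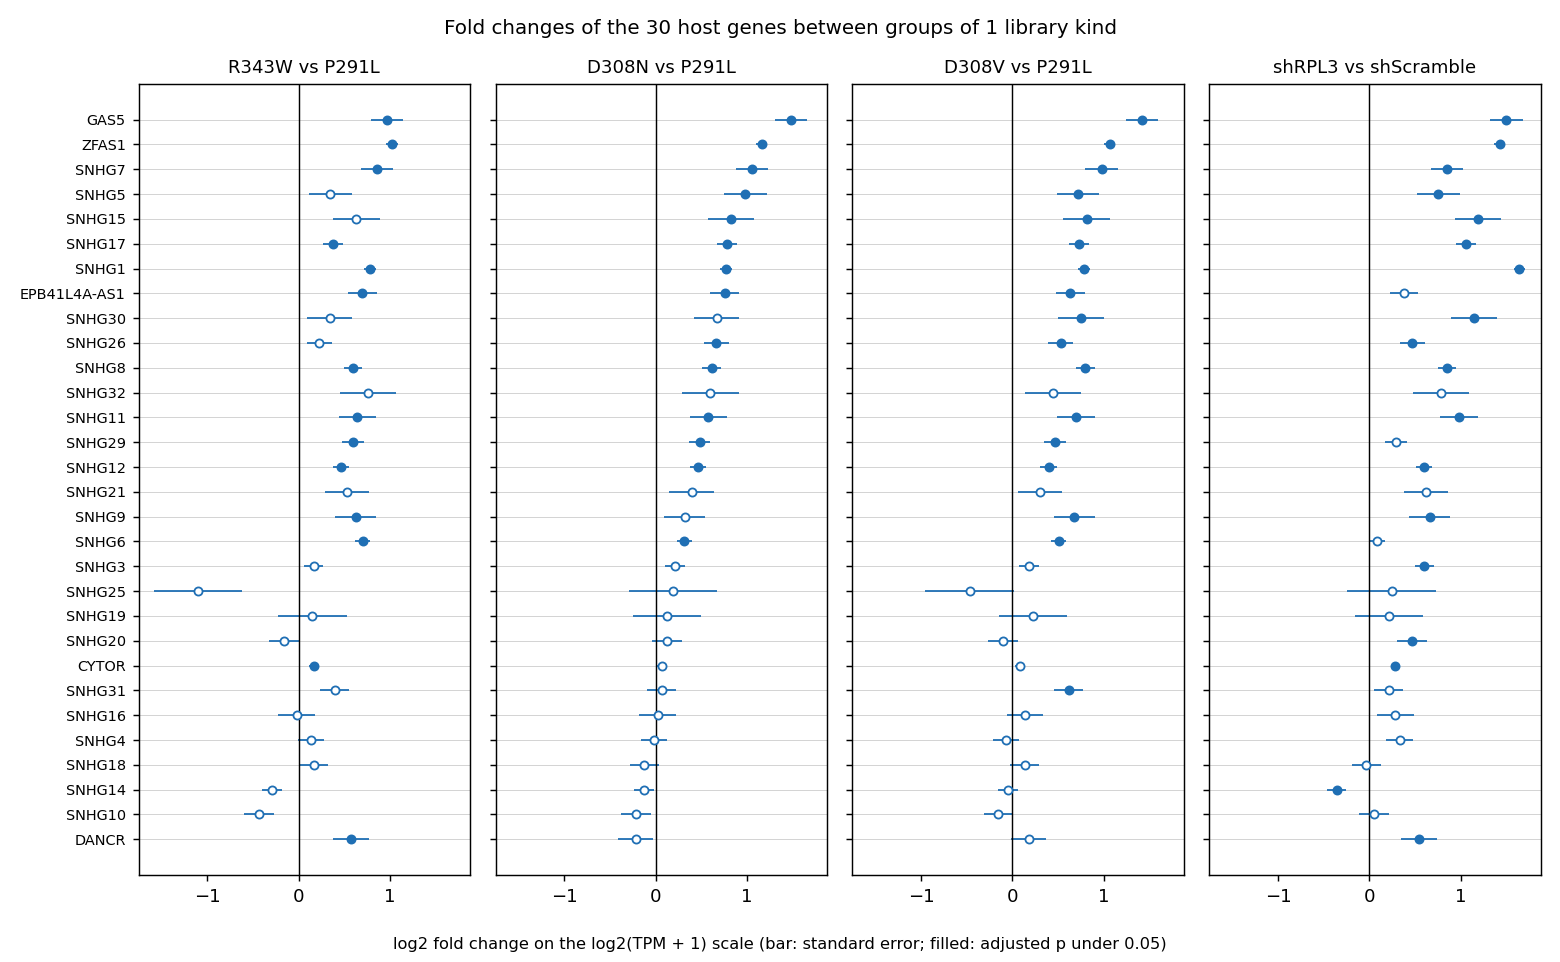
Log2 fold change of each host gene in R343W, D308N and D308V against P291L and in shRPL3 against shScramble, with bars for the SE and filled points for an adjusted p under 0.05. GAS5 and ZFAS1 lie at 0.97 to 1.50 in all 4 panels, SNHG14 lies below 0 in shRPL3, and SNHG25 has the widest bars.

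Among the 3 high lines few host genes passed without the kind term and more with it. In D308N against D308V no host gene passed in limma, and 2 had an unadjusted p under 0.05, where 0.776% of all genes tested were higher and 0.866% lower. In the fit with library kind, 1 was higher and 3 lower, against 4.07% and 4.19%. In R343W against D308N 2 were higher and 3 lower, against 9.57% and 8.29%. DANCR, host of SNORA26 and named for restraining differentiation, was at 104 ± 2.61 TPM in R343W and 60.1 ± 6.88 TPM in D308N (log2 fold change 0.79, SE 0.19, adjusted p = 0.0059). SNHG6, host of SNORD87, was at 282 ± 9.24 TPM in R343W and 216 ± 4.67 TPM in D308N (0.38, SE 0.09, 0.0028). GAS5 (-0.52, 0.047), SNHG26 (-0.44, 0.028) and SNHG17 (-0.41, 0.011) were lower. Under the kind term, 5 were higher and 8 lower, against 17.5% and 16.0%. In R343W against D308V SNHG17 alone passed without the kind term, lower, against 4.58% of all genes higher and 3.06% lower, at 49.8 ± 0.635 TPM in R343W and 63.9 ± 1.59 TPM in D308V (-0.35, SE 0.11, 0.0497), and it was lost whenever any 1 library was left out. With the kind term 4 were higher and 6 lower, against 11.7% and 8.74%.

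A few host genes had patterns of their own. SNHG10 passed in 0 of the 23 comparisons without the kind term and 1 with it, with group means of 6.33 TPM in R343W to 8.87 TPM in P291L. Without the kind term SNHG16 and SNHG19 passed only in T189M against shRPL3, and with it SNHG16 passed in 4 comparisons and SNHG19 in 0. SNHG25, a host of little length around SNORD104, read 29.7, 31.6 and 14.8 TPM in R343W, 28.5, 64.7 and 29.5 TPM in D308V, 42.0, 43.5 and 28.1 TPM in G27D, 42.0, 67.0 and 52.6 TPM in P291L, and 24.5, 56.7 and 40.9 TPM in R161W. It read 5.72, 31.3 and 23.1 TPM in T189M, 42.8, 46.4 and 29.8 TPM in RPL3L-WT, and 16.2, 13.4 and 26.996 TPM in shScramble. Replicates of 1 line differed by up to several fold, and most neighbouring lines overlapped. SNHG18 was at 15.0 ± 1.05 TPM in R343W, 12.1 ± 0.470 TPM in D308N and 14.7 ± 2.22 TPM in D308V, and at 19.1 ± 2.35 TPM in shRPL3 and 19.5 ± 1.29 TPM in shScramble, and it was lower than in shRPL3 by the test in 4 of the 7 variants. R161W, at 18.6 ± 3.93 TPM, was near the lines without a construct.

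By class of snoRNA the changes were spread over both main kinds. Of the 13 hosts of box C/D snoRNAs only, 5 were higher and 1 was lower in shRPL3 against shScramble, with a median log2 fold change of 0.29. Of the 11 hosts of H/ACA snoRNAs only, 8 were higher and 0 lower, with a median of 0.66, and both mixed hosts, GAS5 and SNHG12, were higher. In D308N against P291L 6 of the 13 and 6 of the 11 were higher, with medians of 0.48 and 0.58. The 13 hosts with a motif match near the start had 7 higher and 0 lower in shRPL3 against shScramble, and the 13 without one 8 higher and 1 lower, with medians of 0.60 and 0.54. Of the 15 hosts with a mean of at least 50 TPM, 11 were higher and 0 lower, and of the 15 below it 6 were higher and 1 lower. Of all genes tested, 17.2% were higher and 18.0% lower in shRPL3 against shScramble, and 11.8% and 7.64% in D308N against P291L. With the kind term, box C/D hosts had 8 higher and 1 lower in shRPL3 against shScramble and H/ACA hosts 10 and 0. Hosts with a motif match had 12 and 0, and those without one 9 and 1. Those of at least 50 TPM had 14 and 0, and those below it 9 and 1. The shares of all genes were then 24.4% and 24.5%. In D308N against P291L the term gave 8 and 0 for box C/D and 8 and 1 for H/ACA hosts, against 21.2% and 13.8%. The differences between these classes were not tested.

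Lists of the surrounding pathways gave smaller medians than the non-coding hosts. In shRPL3 against shScramble, where 17.2% of all genes tested were higher and 18.0% lower, 11 of 19 snoRNP proteins and assembly factors were higher and 0 lower, with a median log2 fold change of 0.40. DKC1, the pseudouridine synthase of H/ACA particles, was at 164 ± 10.4 TPM in shRPL3 and 87.9 ± 3.81 TPM in shScramble. NUFIP1, an assembly factor, and GAR1, an H/ACA core protein, were higher by 0.89 and 0.72. Of 19 nonsense-mediated decay and exon junction factors 10 were higher and 0 lower, with a median of 0.23. UPF3B, which links the exon junction to the decay machinery, was at 54.2 ± 3.92 TPM in shRPL3 and 22.7 ± 1.44 TPM in shScramble, and PNRC2 and MAGOHB were higher by 0.77 and 0.65. Of 16 translation genes with a TOP other than ribosomal proteins 3 were higher and 4 lower without the kind term, shares near those of all genes. Among them NPM1 at 0.55 and EIF3E at 0.47 were higher. PABPC1 was lower, at 844 ± 24.1 TPM in shRPL3 and 1043 ± 36.2 TPM in shScramble. With the kind term 7 of the 16 were higher and 4 lower, against 24.4% and 24.5% of all genes, so the share higher passed that of all genes. The snoRNP factors then had 15 higher and 0 lower, and the decay factors 13 and 0.

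Protein-coding genes that hold snoRNAs in their introns also had smaller medians. In shRPL3 against shScramble 12 of 27 ribosomal protein hosts were higher and 1 lower (median 0.33), and 36 of 124 other coding hosts were higher and 14 lower (median 0.11). The 79 ribosomal protein genes other than RPL3 gave 40 higher and 1 lower (median 0.37). Holding library kind in the fit, these counts were 26 and 1 of 27, 51 and 20 of 124, and 72 and 2 of 79, against 24.4% and 24.5% of all genes, at the same medians. In D308N against P291L, where 11.8% of all genes were higher and 7.64% lower, the ribosomal protein hosts had 0 higher and 0 lower with a median of 0.06, the other coding hosts 17 higher and 8 lower with a median of 0.06, and the 79 ribosomal protein genes 6 higher and 0 lower with a median of 0.07, while the non-coding hosts had 14 of 30 higher with a median of 0.43. Fitted with the kind term, these were 8 and 1, 35 and 18, 31 and 3, and 19 and 1, against 21.2% and 13.8% of all genes. snoRNP factors had 7 higher and 0 lower there, RRP9 at 0.56, NOP58 at 0.45 and DKC1 at 0.41 among them, and UPF3B was at 60.8 ± 3.78 TPM in D308N and 34.0 ± 0.695 TPM in P291L. In RPL3L-WT against shRPL3 5 snoRNP factors, 10 decay factors and 22 ribosomal protein hosts were lower and 0 higher in each list, with medians of -0.12, -0.27 and -0.33, where 30.2% of all genes were lower and 5.77% higher. With median-ratio scaling these became 1 higher and 1 lower (median 0.10), 1 and 4 (-0.05) and 2 and 6 (-0.11), so the sign of the snoRNP median turned. Library kind as a term instead gave 9, 12 and 19 lower and 0 higher in each list, with medians of -0.16, -0.26 and -0.15. Of all genes 20.1% were lower and 6.27% higher in that fit. These lists were compared with one another by counts and medians only.

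Several host genes share their locus with another gene that had a mean of at least 1 TPM. On the opposite strand SNHG29 overlaps LRRC75A, GAS5 overlaps ZBTB37, ZFAS1 overlaps ZNFX1 and SNHG12 overlaps TRNAU1AP in GENCODE 29. On the same strand SNHG3 overlaps RCC1, SNHG4 overlaps MATR3, SNHG14 overlaps SNRPN and SNHG25 holds SNORD104 as an entry of its own. Whether the quantification used strand is not stated in the sources used here, so these values are uncertain to that extent. In GENCODE 29 (GRCh38) GAS5 (ENSG00000234741) lies on chromosome 1 at 173863900 to 173868882 and SNHG1 (ENSG00000255717) on chromosome 11 at 62851988 to 62855914, both on the minus strand. ZFAS1 (ENSG00000177410) lies on chromosome 20 at 49278178 to 49295738 and SNHG32 (ENSG00000204387) on chromosome 6 at 31834608 to 31839766, both on the plus strand. SNHG5 (ENSG00000203875) lies on chromosome 6 at 85660950 to 85678748, SNHG7 (ENSG00000233016) on chromosome 9 at 136721366 to 136728184 and SNHG15 (ENSG00000232956) on chromosome 7 at 44983023 to 44986961, all on the minus strand, and SNHG25 (ENSG00000266402) on chromosome 17 at 64145970 to 64146476 on the plus strand.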

How the data were processed

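The authors deposited TPM per gene for 30 whole-cell polyA libraries (TruSeq chemistry with a KAPA HiFi final PCR, per the labels); each library sums to 1000000 TPM, so depth is unknown. Tools listed in the submitters' processing notes are bcl2fastq 2.19, bedtools, Bowtie and kallisto; the sources used here give no index, annotation or build. Of 60612 entries 6 constructs were left out, 0 value columns were unmatched, and 12 nuclear libraries were not used. Values entered as log2(TPM + 1), a pseudocount of 1, which understates changes of low genes. limma (lmFit, eBayes with trend and robust) fitted the 10 groups over 30 libraries for 14426 genes with a mean of at least 1 TPM, two-sided; p-values were adjusted by Benjamini-Hochberg in each of 23 comparisons, at a threshold of 0.05. A second fit held the library kind as a term. Same-numbered RPL3L-WT and T189M libraries, which are also of 1 kind, deviated together (correlations 0.191, 0.194 and 0.505). Some same-numbered pairs of other lines did so too. The host genes, lists and tests were chosen with earlier results of these data known. The 8 host genes with the widest range of group means of log2 values are given in every library, and up to 4 called each way were named per comparison; other names were added after their values were seen. RefSeq windows were matched by symbol, and snoRNAs by RefSeq span without strand. The fits were tested on simulated data. Python 3.11.15, numpy 2.4.6, pandas 2.3.3, scipy 1.17.1, matplotlib 3.10.9, R 4.3.3 and limma 3.58.1 were used.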

Additional observations from a re-analysis of the deposited data

How the results depend on the processing

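Counts of host genes called are given for higher and lower together. For refits other than the one with the kind term, here, below and above, the share of all genes called is not given. Those counts show how far a result moved, and not whether host genes were called more often than all genes. With the library kind as a term the count became 21 in RPL3L-WT against shScramble (11 without it), and against RPL3L-WT 7 in T189M (1), 18 in R161W (7), 10 in G27D (6) and 0 in P291L (1). Against shRPL3 it became 20 in P291L (9), 6 in G27D (3), 16 in D308N (8) and 14 in D308V (4), and among the high lines 13 in R343W against D308N (5), 10 in R343W against D308V (1) and 4 in D308N against D308V (0). With first-kind libraries only it was 17 in RPL3L-WT against shScramble, 0 in P291L, 11 in G27D and 0 in T189M against RPL3L-WT, 21 in P291L, 6 in G27D, 18 in D308N, 14 in D308V and 11 in R343W against shRPL3, 23 in R343W against P291L, and 15, 11 and 6 in the same 3 comparisons of high lines. With no filter on low genes it was 0 in P291L against RPL3L-WT, 3 in D308N, 2 in D308V and 3 in R343W against shRPL3, 3 in R343W against D308N and 0 in R343W against D308V. With median-ratio scaling (SNHG14 in RPL3L-WT against shScramble lost its call) it was 2 in P291L, 11 in R161W and 3 in T189M against RPL3L-WT, 8 in D308V against shRPL3 and 2 in R343W against D308V. A pseudocount of 0.1 gave 0 in R343W against D308V. With a replicate block this comparison also gave 0 and the others stayed within 1.5 times of their count, 18 in shRPL3 against shScramble. Same-numbered libraries deviated together (correlation above 0.1) in 10 of 135 pairs. Among them were R161W and T189M, at 0.332 for replicate 1 and 0.330 for replicate 3. Other pairs deviated apart, down to -0.56. Library kind and replicate number are mixed in such pairs, so these correlations cannot show whether same-numbered libraries share more than a number. Why the counts moved was not tested. Between lines of the first kind only, the kind term left the fold changes as they were while the counts moved. P291L against shRPL3 had a median of -0.32 in both fits, with 9 called without the term and 20 with it. There the fits differed in the estimated spread and so in the p-values.

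Leaving out 1 library at a time gave 15 to 16 in shRPL3 against shScramble, 13 to 20 in RPL3L-WT against shRPL3 and 9 to 11 in RPL3L-WT against shScramble. Against RPL3L-WT it gave 0 to 8 in P291L (8 without RPL3L-WT replicate 3), 3 to 13 in G27D (3 without G27D replicate 1 or 2 or RPL3L-WT replicate 1 or 2, 13 without G27D or RPL3L-WT replicate 3), 4 to 7 in R161W (4 without RPL3L-WT replicate 1), 0 to 2 in T189M, 15 to 22 in D308N, 17 to 25 in D308V and 17 to 26 in R343W. Against shRPL3 it gave 7 to 9 in P291L, 2 to 4 in G27D, 14 to 20 in R161W, 16 to 23 in T189M, 3 to 6 in D308N (3 without D308N replicate 2 or shRPL3 replicate 1 or 3), 2 to 3 in D308V and 2 to 5 in R343W (2 without R343W replicate 1). Against P291L it gave 11 to 13 in D308N, 12 to 14 in D308V and 9 to 12 in R343W (9 without P291L replicate 3). It gave 3 to 4 in R343W against D308N, 0 to 0 in R343W against D308V and 0 to 0 in D308N against D308V. Of 1044 refits of named fold changes 910 kept their call, 134 lost it and 0 changed sign, and 100 of the losses came from leaving out a library.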

Other observations

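Of 135 snoRNAs inside the host genes that have entries of their own in the table, 111 were listed at 0 in every library and 12 had a mean of at least 1 TPM. The highest were SNORD104 of SNHG25, at a mean of 103 TPM and at most 187 TPM, and SNORD99 of SNHG12, at a mean of 92.6 TPM and at most 234.6 TPM. SNORA73B of SNHG3 averaged 30.6 TPM, SNORD93 of SNHG26 29.1 TPM and SNORD12B of ZFAS1 27.6 TPM. The libraries were polyA-selected and short entries share sequence with their host, so these values are given as listed and were used in no comparison.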
